A study of Mus musculus with 12 samples.

Results

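Cells take up iron mostly as transferrin, which the transferrin receptor (Tfrc) carries into endosomes. There the reductase Steap3 and the exporter Slc11a2 (DMT1) free the metal into the cytosol, and acidification of the endosome is needed for release. Iron that is not used is stored in ferritin, a shell of heavy (Fth1) and light (Ftl1) chains, heme is opened by heme oxygenase 1 (Hmox1), and iron leaves the cell through ferroportin (Slc40a1). The iron regulatory proteins, Ireb2 among them, bind the messengers of Tfrc and of the ferritins when iron is scarce: Tfrc messenger is then stabilised and ferritin messenger is not translated, so for ferritin the messenger level need not follow the protein. The genes described here are these 8 and Slc11a1 (NRAMP1), the phagosomal metal transporter. They were chosen by name, as the probe sets whose annotation gives that gene symbol alone. Of the 9 genes, 8 were measured, each by 1 probe set, among 19937 genes in all. Ftl1 is counted among the 8, though whether its probe set reads Ftl1 was not checked. Slc11a1 had no such probe set and was not analysed here, and 3 further probe sets that list Ftl1 beside other symbols were not used.

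The study removed Lamtor2, a subunit of the Ragulator complex that holds mTORC1 and MAPK signalling at late endosomes and lysosomes, from the blood system of mice. The KO mice were C57BL/6J Mx1-Cre animals with floxed Lamtor2 alleles (Lamtor2 f/f), and the WT mice were C57BL/6J Mx1-Cre animals with Lamtor2 wt/wt alleles; the strain labels of both read Mx1-Cre wt/wt. Both received pIpC (a synthetic double-stranded RNA that induces interferon, and through it the Mx1 promoter) by intraperitoneal injection, and bone marrow was sorted 14 days later; ages are not given in the labels. Mx1-Cre acts in many interferon-responsive cells, so deletion was not limited to the sorted populations. LSK cells (lineage-negative, Sca1+ c-kit+) hold stem and multipotent progenitor cells, and GMP (lineage-negative, Sca1- c-kit+ CD34+ Fcγ receptor+) are granulocyte-macrophage progenitors. Each genotype of each cell type had 3 arrays, from 3 mice per genotype. The labels do not say which LSK and GMP samples shared a mouse, and the comparisons treat the 12 arrays as independent.

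Values are RMA values on a log2 scale, in which a difference of 1 is a 2-fold change. Each gene is compared only with itself across arrays, since probe sets differ in brightness. A gene was called changed where its adjusted p in the limma fit was below 0.05 (Benjamini-Hochberg over all 19937 genes). Lamtor2 had 5.11, 5.40 and 5.77 in LSK KO arrays, against 10.39, 10.48 and 10.31 in LSK WT arrays. It had 5.53, 5.12 and 4.95 in GMP KO arrays, against 10.80, 10.82 and 10.61 in GMP WT arrays. All 6 KO arrays were low and all 6 WT arrays high, as their labels say. All 10 measured LSK markers were higher in LSK than in GMP in each genotype (9 of 10 in KO cells without GMP KO replicate 1 or without LSK KO replicate 2), and 9 of 10 GMP markers were lower (8 of 10 in KO cells without LSK KO replicate 2). GMP KO replicate 1 stood apart: its mean correlation with the other arrays of its group was 0.962, against 0.972 and 0.975 for the other GMP KO arrays and 0.987 to 0.992 for all other arrays. Counts and medians that move by over 1.5 times or change sign without it are given with and without it for the KO comparison in GMP.

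Promoter sequence is shown for Tfrc, the gene whose KO difference was opposite in the 2 cell types, and for both ferritin chains. RefSeq windows (GRCm38.p6) were at hand for 6 of the 9 genes, as 11 windows from 250 bases before a transcript start to 50 after it, and the 250 bases before the start are printed. Capitals mark 3 motifs that were chosen after the windows were read. They are the core of the hypoxia response element, spelled ACGTG and searched on either strand, the CCAAT box on either strand, which appears below in its reverse form, and the TATA box, spelled TATAA and searched on the sense strand. The windows are the downstream of the 2 Tfrc starts (chr16:32608872-32609121, plus strand), the downstream of the 2 Fth1 starts (chr19:9982396-9982645, plus strand) and the Ftl1 start (chr7:45459887-45460136, minus strand).
Tfrc: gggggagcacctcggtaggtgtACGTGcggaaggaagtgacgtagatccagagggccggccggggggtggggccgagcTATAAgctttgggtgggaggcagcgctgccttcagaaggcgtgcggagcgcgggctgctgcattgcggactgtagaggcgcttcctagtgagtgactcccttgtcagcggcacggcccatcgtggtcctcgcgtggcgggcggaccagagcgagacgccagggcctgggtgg
Fth1: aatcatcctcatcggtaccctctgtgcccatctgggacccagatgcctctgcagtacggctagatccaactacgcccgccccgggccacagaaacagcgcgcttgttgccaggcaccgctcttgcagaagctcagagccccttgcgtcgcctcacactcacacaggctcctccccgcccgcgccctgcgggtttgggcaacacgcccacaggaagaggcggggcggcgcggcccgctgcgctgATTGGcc
Ftl1: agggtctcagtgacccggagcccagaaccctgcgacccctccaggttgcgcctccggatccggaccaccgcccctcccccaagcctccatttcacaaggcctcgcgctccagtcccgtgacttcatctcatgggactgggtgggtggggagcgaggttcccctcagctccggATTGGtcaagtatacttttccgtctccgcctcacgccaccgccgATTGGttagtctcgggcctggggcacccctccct

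In the Tfrc window ACGTG began 228 bases and TATAA 172 bases before the start. The same ACGTG began 2 bases before the upstream Tfrc start, and TATAA lies after that start. The upstream window, not printed, held a CCAAT box 124 bases before its start. TATAA also lay in the Fth1 and Ftl1 windows, 27 and 18 bases after the start and so outside the printed bases. Of all 32851 RefSeq promoter windows of full length, with the 50 bases after the start, 19.6% held ACGTG and 17.5% held TATAA. The reversed CCAAT box began 7 bases before the Fth1 start, and 78 and 34 bases before the Ftl1 start; 37.4% of all windows held the CCAAT box on either strand. The core of the antioxidant response element (TGACNNNGC, either strand), which 12.4% of all windows held, had no match in the 11 windows of the iron genes. The E box of lysosomal gene promoters, spelled CACGTG, overlaps the hypoxia core in its letters. This E box had no match either and was in 7.15% of all windows. Hmox1, Slc40a1 and Slc11a2 had no window, so no motif was searched for in their promoters. For the other genes, sites outside the windows could not be seen. The loop letters of the iron-responsive element (CAGTGN, sense strand, in 34.6% of all windows) lay after a start, where they would be transcribed, only in 1 Steap3 window, 9 bases into it. The windows end 50 bases after a start, so loops further into a messenger could not be seen. The search therefore cannot tell which of these messengers carry the element. These matches describe letters only.

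In LSK cells the loss of Lamtor2 went with more Tfrc messenger and with no other called change among the iron genes. Tfrc was the 1 gene called of the 8, beside 4.44% of all genes called in either direction in this comparison (2.49% higher and 1.96% lower). In GMP the picture was wider: Hmox1 and Fth1 rose, Tfrc and Steap3 fell, and 4 of the 8 genes were called, beside 16.1% of all genes (5.78% higher and 10.3% lower). Slc40a1 and Ftl1 passed the threshold as well without GMP KO replicate 1, so that 4 of the 8 rose and 2 fell. The share of all genes in that fit is not set beside this count. The median difference of the 8 genes was 0.19 in LSK, against -0.01 over all genes, and 0.37 in GMP, against 0.01 over all genes. Because whole sorted populations were measured, fewer cells of a type and less RNA per cell cannot be told apart.

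**Figure D1:**
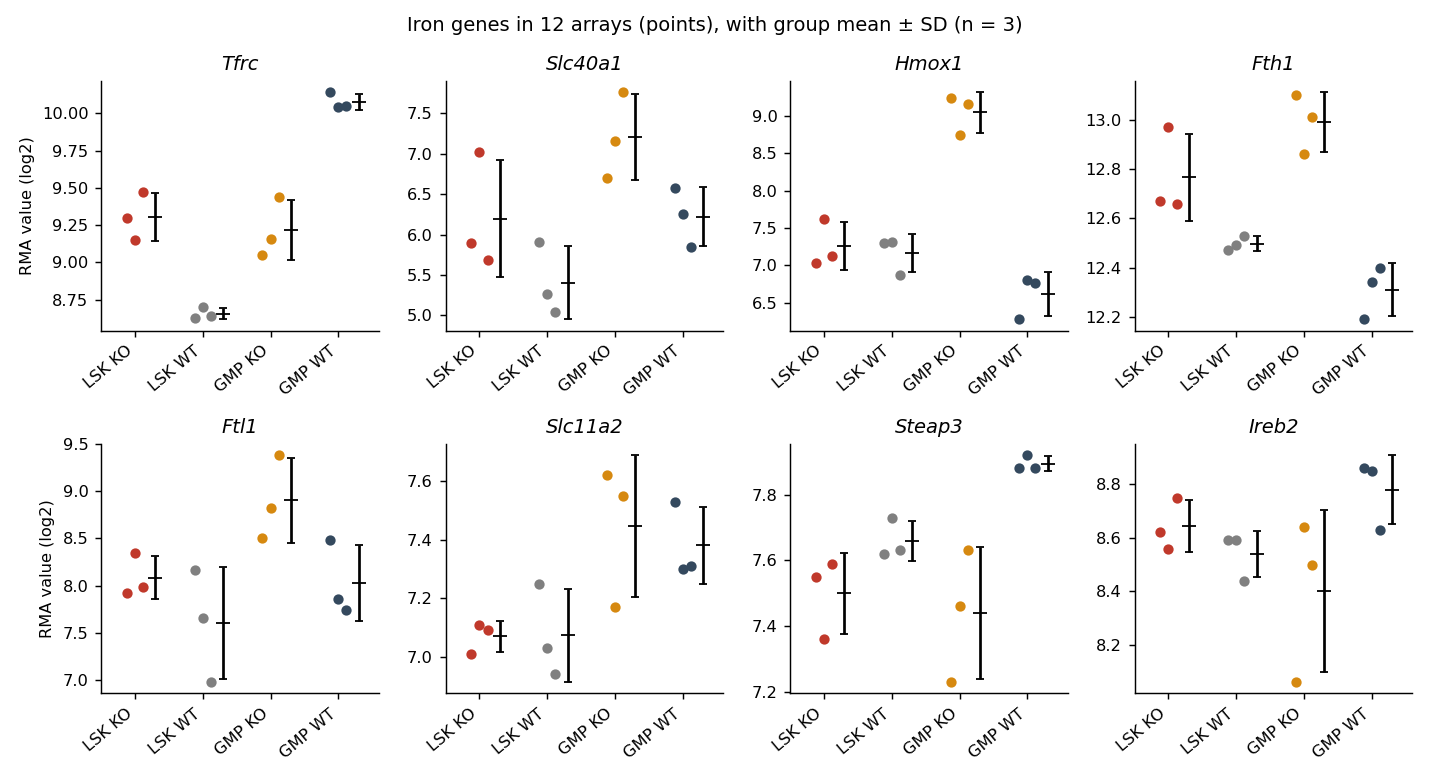
RMA value (log2, vertical axis) of the 8 measured iron genes in each of the 12 arrays (points), by group, with the group mean ± SD (n = 3) beside the points; each panel has its own axis. Tfrc in the KO arrays of both cell types lies between 9.05 and 9.47, above LSK WT and below GMP WT, and Hmox1 is highest in the 3 GMP KO arrays.

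Uptake begins with Tfrc. It had 9.30, 9.15 and 9.47 in LSK KO arrays, against 8.63, 8.70 and 8.64 in LSK WT arrays. Every LSK KO array was above every LSK WT array. The difference was 0.65 (SE 0.11, 95% interval 0.41 to 0.89), a 1.57-fold rise (limma adjusted p = 0.00485). In GMP it had 9.05, 9.16 and 9.44 in KO arrays, against 10.14, 10.04 and 10.05 in WT arrays. Here every KO array was below every WT array. The difference was -0.86 (SE 0.11, 95% interval -1.10 to -0.62), a 1.82-fold fall (limma adjusted p = 0.000235). The KO effect in LSK minus that in GMP was 1.51 (SE 0.16, 95% interval 1.17 to 1.85, limma adjusted p = 0.000434), so the opposite directions differed beyond the spread between arrays.

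The levels of Tfrc were ordered GMP WT (10.07 ± 0.05), LSK KO (9.31 ± 0.16), GMP KO (9.21 ± 0.20) and LSK WT (8.66 ± 0.04; SD, n = 3 each). The neighbours LSK KO and GMP KO overlapped, with a difference of 0.09 (SE 0.11, 95% interval -0.15 to 0.34, limma adjusted p = 0.588). In WT cells the difference of LSK from GMP was -1.42 (SE 0.11, limma adjusted p = 1.52e-06), a 2.67-fold lower value in LSK. The KO arrays of the 2 cell types thus lay between the WT levels and close to each other.

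Steap3 reduces ferric iron inside the endosome. It had 7.23, 7.46 and 7.63 in GMP KO arrays, against 7.88, 7.92 and 7.88 in GMP WT arrays. All 3 KO arrays were lower, and the WT arrays lay close together. The difference was -0.45 (SE 0.11, 95% interval -0.69 to -0.22), a 1.37-fold fall (limma adjusted p = 0.0114). A fit of the GMP arrays alone gave the same difference with an adjusted p of 0.0582. In LSK cells Steap3 had 7.55, 7.36 and 7.59 in KO arrays, against 7.62, 7.73 and 7.63 in WT arrays. The KO arrays were the lower ones here too, but the difference of -0.16 (SE 0.11, 95% interval -0.39 to 0.08) was not called (limma adjusted p = 0.572). The difference between these effects was 0.30 (SE 0.15, limma adjusted p = 0.277) and was not called.

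Slc11a2 moves ferrous iron out of the endosome. It had 7.01, 7.11 and 7.09 in LSK KO arrays, against 7.25, 7.03 and 6.94 in LSK WT arrays, and the groups overlapped. It had 7.62, 7.17 and 7.55 in GMP KO arrays, against 7.53, 7.30 and 7.31 in GMP WT arrays, and these groups overlapped as well. The 95% interval of the KO difference ran from -0.28 to 0.27 in LSK and from -0.21 to 0.34 in GMP, with limma adjusted p values of 0.997 and 0.803.

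Among the storage genes, Fth1 had 13.10, 12.86 and 13.01 in GMP KO arrays, against 12.19, 12.34 and 12.40 in GMP WT arrays. All 3 KO arrays were above all 3 WT arrays. The difference was 0.68 (SE 0.11, 95% interval 0.45 to 0.91), a 1.6-fold rise (limma adjusted p = 0.000829). In LSK cells Fth1 had 12.67, 12.97 and 12.66 in KO arrays, against 12.47, 12.49 and 12.53 in WT arrays. The KO arrays were again the higher ones, by 0.27 (SE 0.11, 95% interval 0.04 to 0.50), which was not called (limma adjusted p = 0.205). Without LSK KO replicate 2, the highest of the 3, the difference was 0.17 (limma adjusted p = 0.557). The effects in LSK and GMP differed by -0.41 (SE 0.15), which was not called (limma adjusted p = 0.123).

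The probe set numbers of the other iron genes are grouped by chromosome. That of Ftl1 falls between Tfrc on chromosome 16 and Fth1 on chromosome 19, while Ftl1 lies on chromosome 7. Whether this probe set reads Ftl1 or a related sequence elsewhere was not checked. Ftl1 had 8.50, 8.82 and 9.38 in GMP KO arrays, against 8.48, 7.86 and 7.74 in GMP WT arrays. All KO arrays were above all WT arrays, the lowest of them by little. The difference was 0.87 (SE 0.29, 95% interval 0.25 to 1.49), with a limma adjusted p of 0.0567, just outside the threshold. Its adjusted p was 0.0273 without GMP KO replicate 1 (difference 1.07) and 0.0367 without GMP WT replicate 1 (difference 1.09). Across all 6 fits that left out 1 GMP array it ranged from 0.0273 to 0.185. In LSK cells Ftl1 had 7.92, 8.34 and 7.98 in KO arrays, against 8.16, 7.66 and 6.98 in WT arrays. These groups overlapped, and the difference of 0.48 (SE 0.29, 95% interval -0.14 to 1.10) was not called (limma adjusted p = 0.48).

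Hmox1, which frees iron from heme, showed the widest separation of the 8 genes. It had 9.24, 8.74 and 9.16 in GMP KO arrays, against 6.28, 6.81 and 6.76 in GMP WT arrays. The groups were far apart. The difference was 2.43 (SE 0.20, 95% interval 2.01 to 2.85), a 5.39-fold rise (limma adjusted p = 4.64e-06). In LSK cells Hmox1 had 7.03, 7.62 and 7.12 in KO arrays, against 7.30, 7.32 and 6.87 in WT arrays. These values overlapped, with a difference of 0.09 (SE 0.20, 95% interval -0.33 to 0.52, limma adjusted p = 0.903). The KO effect in LSK minus that in GMP was -2.34 (SE 0.28, 95% interval -2.93 to -1.74, limma adjusted p = 0.000855). The levels were ordered GMP KO (9.04 ± 0.27), LSK KO (7.26 ± 0.31), LSK WT (7.16 ± 0.25) and GMP WT (6.62 ± 0.29; SD, n = 3 each), and LSK KO and LSK WT were neighbours that did not differ beyond their spread. In WT cells Hmox1 differed by 0.55 between LSK and GMP (SE 0.20), which was not called (limma adjusted p = 0.0695).

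The exporter Slc40a1 had 6.70, 7.16 and 7.76 in GMP KO arrays, against 6.57, 6.25 and 5.84 in GMP WT arrays. All KO arrays were above all WT arrays, with wide spread in each group. The difference was 0.99 (SE 0.35, 95% interval 0.24 to 1.74) and was not called (limma adjusted p = 0.0725). Without GMP KO replicate 1 it was 1.24 (limma adjusted p = 0.0328), and the 6 fits that left out 1 GMP array gave adjusted p values of 0.0328 to 0.221. In LSK cells Slc40a1 had 5.89, 7.02 and 5.68 in KO arrays, against 5.91, 5.26 and 5.04 in WT arrays. LSK KO replicate 2 was high and the other KO arrays overlapped the WT arrays. The difference of 0.79 (SE 0.35, 95% interval 0.04 to 1.54, limma adjusted p = 0.278) was 0.38 without that array.

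Ireb2 encodes an iron regulatory protein that is itself degraded when iron is plentiful. It had 8.06, 8.64 and 8.50 in GMP KO arrays, against 8.86, 8.85 and 8.63 in GMP WT arrays. The groups overlapped by 1 value. The difference of -0.38 (SE 0.14, 95% interval -0.67 to -0.08) was not called (limma adjusted p = 0.0801), but was -0.50 without GMP KO replicate 2 (limma adjusted p = 0.0241). In LSK cells it had 8.62, 8.56 and 8.75 in KO arrays, against 8.59, 8.59 and 8.44 in WT arrays, and the groups overlapped (difference 0.10, SE 0.14, limma adjusted p = 0.825). Its messenger level does not report the protein.

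**Figure D2:**
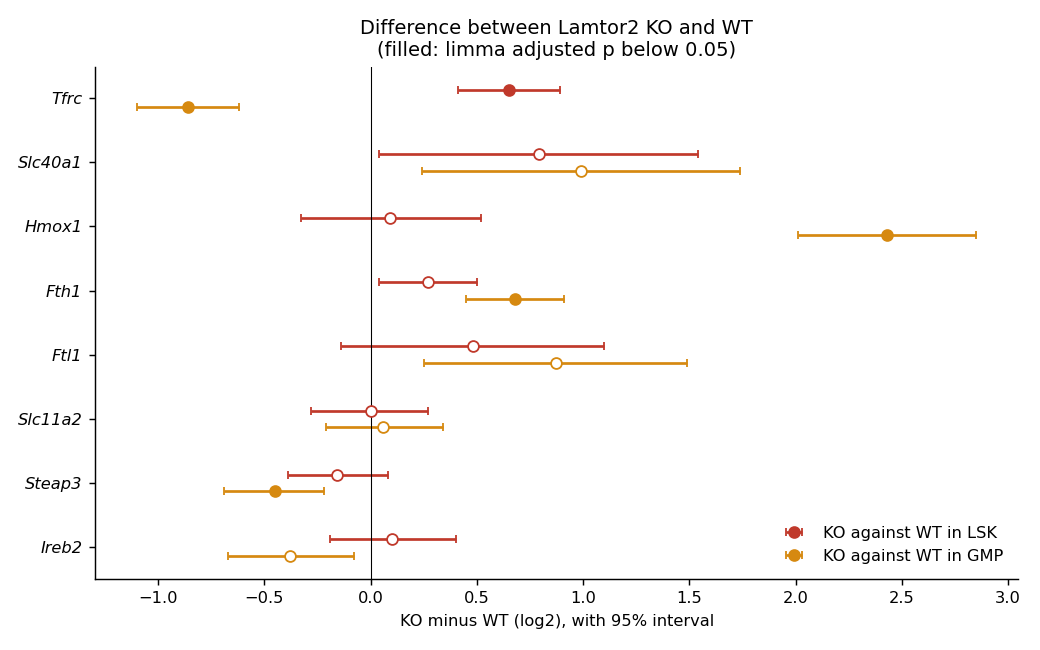
KO minus WT difference (log2, horizontal axis) of the 8 iron genes with its 95% interval, in LSK (red) and GMP (orange); filled points have a limma adjusted p below 0.05. Tfrc lies at 0.65 in LSK and -0.86 in GMP, on opposite sides of 0, and Hmox1 lies at 0.09 in LSK and 2.43 in GMP.

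The test of the difference between cell types called 2 of the 8 genes, Tfrc (higher in LSK) and Hmox1 (lower in LSK), beside 7.98% of all genes (5.34% higher and 2.64% lower). For the other 6 genes the difference between the effects was not called, with adjusted p values between 0.123 for Fth1 and 0.878 for Slc11a2. In WT cells 1 of the 8, Tfrc, differed between LSK and GMP, beside 19.6% of all genes (10.3% higher and 9.32% lower in LSK). In KO cells 1 of the 8, Hmox1, differed between LSK and GMP, by -1.79 (SE 0.20, limma adjusted p = 6.47e-05), beside 15.8% of all genes (10.1% higher and 5.79% lower in LSK). In KO cells 3 of the 8 differed without GMP KO replicate 1, and 2 without LSK KO replicate 2. The shares of all genes in those fits are not set beside these counts. The counts of 1 are near or under the share of all genes and so are not a result about the iron genes. The comparisons share arrays: the 3 GMP WT arrays, for example, serve both the KO comparison in GMP and the WT comparison.

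Other genes of iron handling were set beside these from lists chosen by function. Of 32 further genes of iron transport, storage and regulation, 2 rose and 0 fell in LSK KO cells, with a median difference of 0.04. In GMP KO cells 2 rose and 3 fell, with a median of 0.05. Beside the 4.44% of all genes called in LSK and the 16.1% in GMP, these counts are near the background and are not a result about the list, so the called genes are described singly. The members that rose in LSK were Ncoa4 and Hfe, and in GMP Mcoln1 and Fbxl5; those that fell in GMP were Hfe, Exoc6 and Pcbp1. The GMP counts were again 2 and 3 without GMP KO replicate 1, with a median of -0.05, and without LSK KO replicate 2 the LSK counts were 1 and 0. The latter fit called fewer of all genes in LSK.

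Hfe, the partner of the transferrin receptors that is mutated in hereditary hemochromatosis, had 6.38, 6.36 and 6.40 in LSK KO arrays, against 6.04, 5.85 and 5.93 in LSK WT arrays. It had 6.53, 6.47 and 6.69 in GMP KO arrays, against 7.19, 7.18 and 7.00 in GMP WT arrays. As for Tfrc, the KO arrays were above WT in LSK and below WT in GMP with no overlap. The differences were 0.44 in LSK (SE 0.09, limma adjusted p = 0.0172) and -0.56 in GMP (SE 0.09, limma adjusted p = 0.00142), and they differed from each other by 1.00 (SE 0.13, limma adjusted p = 0.00148). The LSK call held in 1 of the 6 fits that left out an LSK array, the one without LSK WT replicate 1, and the limma adjusted p ranged from 0.0322 to 0.0864. Most of these fits also called fewer of all genes in LSK.

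Ncoa4, the receptor that carries ferritin to autophagosomes and lysosomes, had 10.83, 10.88 and 10.85 in LSK KO arrays, against 10.21, 10.15 and 10.38 in LSK WT arrays. The KO arrays were all higher, by 0.61 (SE 0.10, limma adjusted p = 0.00307). In GMP it had 10.54, 10.83 and 10.72 in KO arrays, against 10.47, 10.56 and 10.53 in WT arrays, with overlap and no call. Mcoln1, the lysosomal cation channel that can release iron, had 8.78, 8.78 and 8.97 in GMP KO arrays, against 7.86, 7.86 and 7.87 in GMP WT arrays. All GMP KO arrays were higher, by 0.98 (SE 0.09, limma adjusted p = 9.65e-06), and the effect in LSK minus that in GMP was -0.85 (SE 0.12, limma adjusted p = 0.00216).

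Smaller changes in GMP KO cells were those of Fbxl5, the iron-sensing ligase subunit that targets the iron regulatory proteins (0.42, SE 0.11, limma adjusted p = 0.0155), Pcbp1, an iron chaperone of ferritin (-0.49, SE 0.12, limma adjusted p = 0.0129), and Exoc6, an exocyst subunit needed for transferrin receptor recycling in red cell precursors (-0.38, SE 0.09, limma adjusted p = 0.01). The call of Fbxl5 was lost without GMP WT replicate 3 (adjusted p = 0.0605) and that of Pcbp1 without GMP WT replicate 2 (adjusted p = 0.0635).

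Of 13 genes of heme transport, scavenging and breakdown, 2 rose and 1 fell in LSK KO cells (median -0.04), and 4 rose and 0 fell in GMP KO cells (median 0.14). Over all genes, 4.44% were called in LSK and 16.1% in GMP. Without GMP KO replicate 1 the GMP counts were 5 and 0 with a median of 0.07, and without LSK KO replicate 2 the LSK counts were 0 and 1 with a median of -0.07. Fewer of all genes were called in LSK in the latter fit, so the 4.44% is not its share. Lrp1, the receptor for heme-hemopexin and many other ligands, had 9.27, 8.69 and 9.46 in GMP KO arrays, against 7.22, 7.10 and 7.27 in GMP WT arrays. It rose by 1.95 (SE 0.24, limma adjusted p = 0.000147) with no overlap. In LSK cells it had 6.99, 8.12 and 7.28 in KO arrays, against 6.62, 6.51 and 6.51 in WT arrays, a rise of 0.92 (SE 0.24, limma adjusted p = 0.0474) called in 1 of 6 fits that left out an LSK array, the one without LSK KO replicate 1, with adjusted p values of 0.0191 to 0.149. Bach1, the heme-sensing repressor of Hmox1, rose by 0.39 in GMP KO cells (SE 0.11, limma adjusted p = 0.0249) and kept its call in 3 of 6 such fits, losing it without GMP KO replicate 3 and without GMP WT replicates 1 and 3 (highest adjusted p 0.105).

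Spic, the transcription factor of heme-recycling macrophages, had 4.86, 6.23 and 6.17 in GMP KO arrays, against 4.72, 4.96 and 4.41 in GMP WT arrays. GMP KO replicate 1 lay within the WT range and the other KO arrays above it. The difference was 1.06 (SE 0.28, limma adjusted p = 0.0214), and the adjusted p ranged from 3.4e-05 without GMP KO replicate 1 to 0.0884 without GMP WT replicate 3. The call was also lost without GMP KO replicates 2 and 3 and GMP WT replicate 1. The biliverdin reductase Blvra rose by 0.43 in GMP KO cells (SE 0.14, limma adjusted p = 0.0487), a call held in 1 of 6 fits, the one without GMP KO replicate 1 (adjusted p = 0.000743, and up to 0.167 in the others). In LSK KO cells the other biliverdin reductase, Blvrb, fell by 0.59 (SE 0.11, limma adjusted p = 0.00925; 0.0531 without LSK KO replicate 3). The heme exporter Flvcr1 rose by 0.52 (SE 0.13, limma adjusted p = 0.0405), a call lost in each of the 6 fits that left out an LSK array (adjusted p 0.0734 to 0.166).

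Of the heme synthesis genes, those called in GMP fell. Of 11 measured genes of 12, 0 rose and 4 fell in GMP KO cells (median -0.33), and 0 rose and 0 fell in LSK KO cells (median -0.07). Over all genes, 5.78% were called higher and 10.3% lower in GMP, and 2.49% and 1.96% in LSK. Alas1, the first and rate-limiting enzyme outside red cells, had 10.61, 10.14 and 10.54 in GMP KO arrays, against 11.42, 11.23 and 11.15 in GMP WT arrays. It was lower in all KO arrays, with a difference of -0.84 (SE 0.15, limma adjusted p = 0.00257). In LSK it had 8.90, 8.32 and 8.52 in KO arrays, against 8.30, 8.17 and 8.12 in WT arrays, which was not called, and the effect in LSK minus that in GMP was 1.22 (SE 0.22, limma adjusted p = 0.00579). As with Tfrc, WT LSK lay below WT GMP, here with a difference of -3.07 (SE 0.15, limma adjusted p = 4.54e-08).

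The later enzymes Cpox (-0.74, SE 0.11, limma adjusted p = 0.000727) and Uros (-0.50, SE 0.09, limma adjusted p = 0.00196) also fell in GMP KO cells. Alad fell by 0.43 (SE 0.14, limma adjusted p = 0.0487), a call lost in each of the 6 fits that left out a GMP array (adjusted p 0.0637 to 0.161). The counts were 0 and 3 without GMP KO replicate 1, with a median of -0.23. The erythroid isoform Alas2 was between 5.32 and 5.85 in all 12 arrays and was not called in either KO comparison.

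Of 15 measured iron-sulfur cluster assembly genes of 18, 0 rose and 0 fell in LSK KO cells (median 0.04), and 1 rose and 2 fell in GMP KO cells (median -0.30). Beside the 4.44% of all genes called in LSK and the 16.1% in GMP, these counts are near or under the background. They are not a result about the list. The cytosolic assembly factors Ciapin1 (-0.61, SE 0.11, limma adjusted p = 0.00265) and Nubp2 (-0.59, SE 0.12, limma adjusted p = 0.00428) fell and the mitochondrial cochaperone Hscb rose (0.38, SE 0.10, limma adjusted p = 0.0178; up to 0.0656 without GMP WT replicate 1 and also lost without GMP WT replicate 3). Without GMP KO replicate 1 the counts were 1 and 2.

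Fth1 and Hmox1 are known targets of the antioxidant factor NRF2, so other targets were listed. Of 16 measured of 17, 1 rose and 0 fell in LSK KO cells (median 0.01), and 2 rose and 3 fell in GMP KO cells (median -0.17). The shares over all genes were 4.44% in LSK, which the LSK count is near, and 16.1% in GMP. Sqstm1, an autophagy receptor, rose in GMP by 0.97 (SE 0.09, limma adjusted p = 1.27e-05). Osgin1 rose by 0.58 (SE 0.17, limma adjusted p = 0.0362), a call held in 1 of 6 fits, the one without GMP KO replicate 2 (adjusted p 0.01, and up to 0.12 in the others). The pentose phosphate enzymes Pgd (-0.81, SE 0.11, limma adjusted p = 0.000291), Taldo1 (-0.74, SE 0.11, limma adjusted p = 0.000628) and Tkt (-0.34, SE 0.10, limma adjusted p = 0.038) fell. Tkt lost its call in 4 of 6 fits, those without GMP KO replicates 1 and 2 and GMP WT replicates 1 and 2 (highest adjusted p 0.152).

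The classic target Nqo1 had 5.01, 4.79 and 4.89 in GMP KO arrays, against 4.95, 4.94 and 5.29 in GMP WT arrays. These groups overlapped. In LSK KO cells the cystine transporter Slc7a11 rose by 0.80 (SE 0.16, limma adjusted p = 0.0144; 0.0675 without LSK WT replicate 3, and also lost without LSK KO replicate 2). Without GMP KO replicate 1 the GMP counts of this list were 1 and 2 with a median of -0.05, and without LSK KO replicate 2 the LSK counts were 0 and 0. The latter fit called fewer of all genes in LSK.

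The difference between the KO effects in LSK and GMP was called for 3 of the 32 further iron genes (2 higher and 1 lower in LSK), 0 of 13 heme transport and breakdown genes, 3 of 11 heme synthesis genes (all higher), 1 of 15 iron-sulfur genes (higher) and 2 of 16 NRF2 targets (1 in each direction), beside 7.98% of all genes. Apart from heme synthesis, these counts are near or under that share and are not results about the lists. The heme synthesis count includes Uros, whose call held in 1 of 12 fits as given below, so its excess is not firm. Without GMP KO replicate 1, 2 heme synthesis genes, 1 heme transport and breakdown gene, 2 iron-sulfur genes and 3 NRF2 targets were called. Without LSK KO replicate 2 there were 2, 1, 0 and 3 in the same order. With all arrays the called genes besides Hfe, Mcoln1 and Alas1 were Exoc6 (0.48, SE 0.13, limma adjusted p = 0.0316), Cpox (0.78, SE 0.16, limma adjusted p = 0.0108), Uros (0.44, SE 0.13, limma adjusted p = 0.0489), Nubp2 (0.66, SE 0.17, limma adjusted p = 0.0284), Pgd (0.93, SE 0.16, limma adjusted p = 0.00421) and Sqstm1 (-0.68, SE 0.12, limma adjusted p = 0.00678). The calls of Exoc6 and Nubp2 each held in 5 of the 12 fits that left out 1 array, with adjusted p values up to 0.088 and 0.0756, and that of Uros held in 1 of 12, the fit without GMP KO replicate 2, with values up to 0.125.

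Between the WT cell types, 2 of the 32 further iron genes were higher and 1 lower in LSK, beside 19.6% of all genes, a share that the list's count does not reach, so these are values of single genes. The second transferrin receptor, Tfr2, had 8.03, 8.39 and 8.30 in LSK WT arrays, against 6.80, 6.89 and 6.50 in GMP WT arrays. Its direction was opposite to that of Tfrc: the difference of LSK from GMP was 1.51 in WT cells (SE 0.17, limma adjusted p = 2.81e-05) and 1.39 in KO cells (SE 0.17, limma adjusted p = 0.000161). Hfe differed by -1.19 between the WT cell types (SE 0.09, limma adjusted p = 1.58e-06), and Slc22a17, a receptor for siderophore-binding lipocalin, by 0.59 (SE 0.11, limma adjusted p = 0.00207). Between the KO cell types 3 were higher and 2 lower in LSK, beside 15.8% of all genes.

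**Figure D3:**
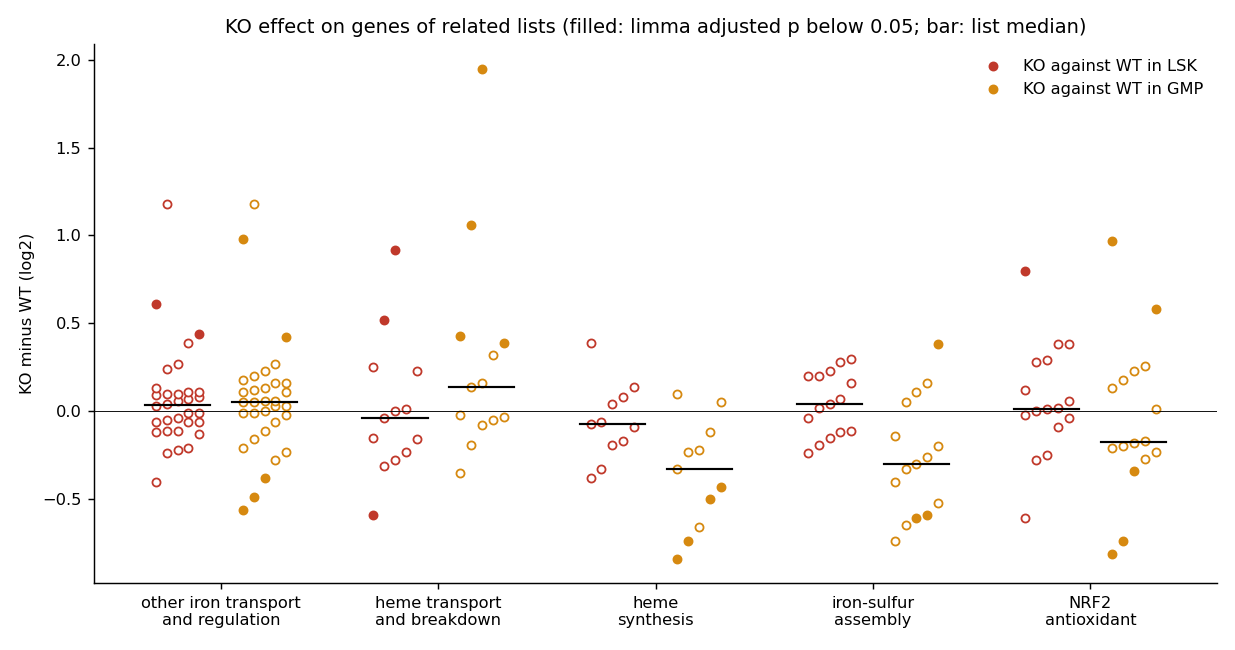
KO minus WT difference (log2, vertical axis) of each gene of 5 related lists, in LSK (red) and GMP (orange); filled points have a limma adjusted p below 0.05 and bars are list medians. In GMP the medians of heme synthesis (-0.33) and iron-sulfur assembly (-0.30) lie below 0, and those in LSK are -0.07 and 0.04.

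The genes whose values over the 12 arrays were most like each called iron gene, after centring each gene on its own mean, were found by the root mean square of the differences. For Tfrc, whose own spread was 0.52, they were Hfe (0.16), Zfp105 (0.16) and Tiam1 (0.18). For Hmox1, with a spread of 0.94, they were Cpeb4 (0.25), Blnk (0.29) and Hebp1 (0.32); Hebp1 encodes a heme-binding protein. For Fth1 (spread 0.28) they were Sirt2 (0.07), Ptprk (0.11) and Tnni2 (0.12). For Steap3 (spread 0.20) they were Psma4 (0.05), Guk1 (0.07) and Psma5 (0.07), of which Psma4 and Psma5 are proteasome subunits. These are descriptions over 12 arrays in 4 groups.

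**Figure D4:**
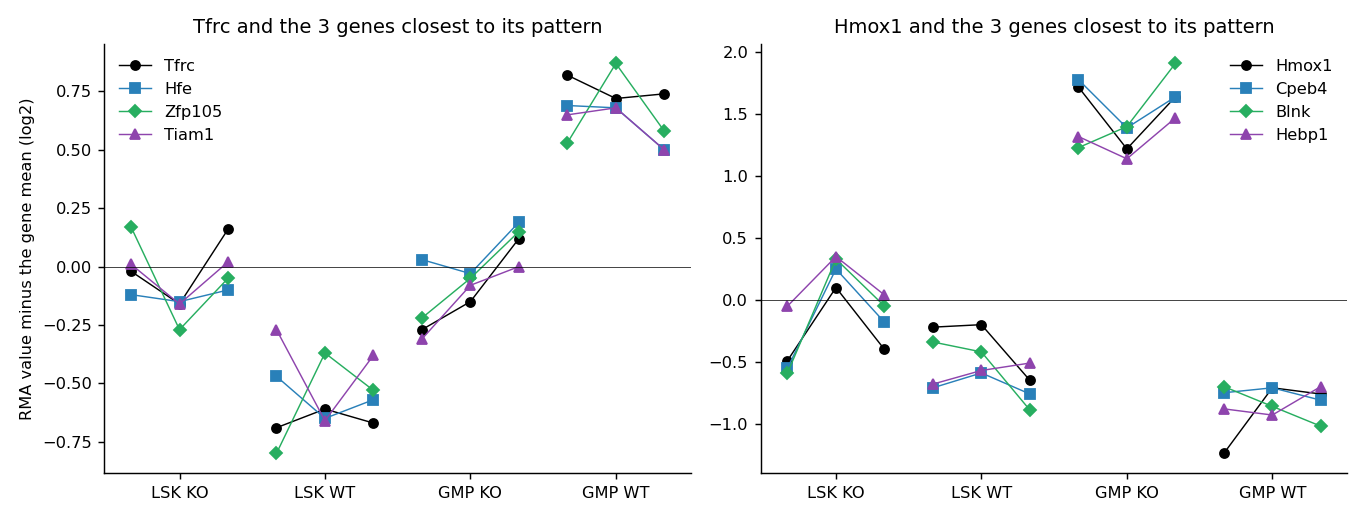
RMA value minus each gene's own mean (log2, vertical axis) in the 12 arrays, 3 per group in replicate order, for Tfrc (left) and Hmox1 (right), each with the 3 genes closest to its pattern; lines join the arrays of a group. Tfrc, Hfe, Zfp105 and Tiam1 are highest in GMP WT, and Hmox1, Cpeb4, Blnk and Hebp1 are highest in GMP KO.

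Marker lists of other cell types were set beside the KO comparisons. In LSK 4.44% of all genes were called (2.49% higher), and in GMP 16.1% (5.78% higher). Of 16 macrophage markers 8 rose and 0 fell in GMP KO cells (median 0.78), and 4 rose and 0 fell in LSK KO cells (median 0.54). Their mean value was 7.15, 7.39 and 7.62 in GMP KO arrays, against 6.03, 5.92 and 6.01 in GMP WT arrays. It was 6.01, 6.81 and 6.22 in LSK KO arrays, against 5.64, 5.69 and 5.47 in LSK WT arrays. The KO arrays were the higher ones in both cell types. Those called in both were the complement genes C1qb and C1qc, Mertk and Cd68, and C1qa, Mrc1, Axl and Siglec1 passed the threshold in GMP and did not in LSK. The difference between the KO effects in LSK and GMP was called for 3 of the 16, each lower in LSK (5 without GMP KO replicate 1 and 6 without LSK KO replicate 2). Of all genes, 7.98% were called for this difference (2.64% lower).

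In other macrophage markers there was no call: Timd4 was between 4.98 and 5.38, Cd5l between 3.38 and 4.22 and Msr1 between 3.25 and 4.58 in all 12 arrays, and Adgre1, Csf1r, Vcam1, Marco and Fcgr1 were not called in either KO comparison. LSK KO replicate 2, highest of the LSK KO arrays for this list, was also the highest of them for Hmox1, Fth1, Ftl1 and Slc40a1. Without it 3 macrophage markers were called in LSK and the list's median there was 0.26, against 0.54 with it. Fewer of all genes were called in LSK in that fit. In GMP 9 were called without GMP KO replicate 1, with a median of 1.04. The part of these markers in the rises of Hmox1 and Fth1 was not tested.

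Over all genes, 10.3% were called lower in GMP KO cells and 1.96% in LSK KO cells. All 11 measured genes of G2 and mitosis fell in GMP KO cells (median -0.99), where Tfrc fell. In LSK KO cells, where Tfrc rose, 0 of these 11 were called (median -0.29). Their mean was 8.98, 8.85 and 9.25 in GMP KO arrays, against 10.05, 9.95 and 9.93 in GMP WT arrays. In LSK it was 9.52, 9.15 and 9.38 in KO arrays, against 9.77, 9.62 and 9.53 in WT arrays, so all LSK KO arrays were below all LSK WT arrays. The part of cycling in the Tfrc difference was not tested.

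Red cell precursors carry much Tfrc. Of 11 measured erythroid markers of 16, 0 rose and 2 fell in each KO comparison. In GMP 16.1% of all genes were called (10.3% lower), so the count there is near the background. It is not a result about the list. In LSK 4.44% of all genes were called (1.96% lower). The medians of these markers were -0.12 in LSK, or -0.05 without LSK KO replicate 2, and -0.22 in GMP. Their mean was 7.44, 6.93 and 6.93 in LSK KO arrays, against 7.69, 7.42 and 6.97 in LSK WT arrays, and 6.20, 6.07 and 5.96 in GMP KO arrays, against 6.51, 6.52 and 6.36 in GMP WT arrays. In LSK the erythroid means of KO and WT arrays overlapped, while in GMP every KO mean was below every WT mean. In each comparison 1 of the 11 markers had a difference above 0. Those called lower were Hemgn (-0.82) and Car2 (-1.62) in LSK, and Car1 (-1.68) and Car2 (-1.15) in GMP. Klf1, the erythroid master factor, was between 5.93 and 6.90 in all arrays. The counts of the next lists stand beside the same shares of all genes, with 2.49% higher in LSK and 5.78% higher in GMP. Of 10 GMP markers 4 rose in LSK KO cells and 2 fell in GMP KO cells. Of 9 monocyte markers 4 rose in LSK, and 2 rose and 3 fell in GMP. Of 9 mast cell and basophil markers 4 rose in LSK and 3 rose in GMP, with a median of 0.99 in GMP. In GMP 6 of them rose without GMP KO replicate 1, with a median of 1.37. Of 10 LSK markers 2 fell in LSK (1 without LSK KO replicate 2), and 2 rose and 1 fell in GMP (2 and 0 without GMP KO replicate 1). The part of such changes in the Tfrc rise in LSK, or in the falls of Tfrc, Steap3 and Alas1 in GMP, was not tested.

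**Figure D5:**
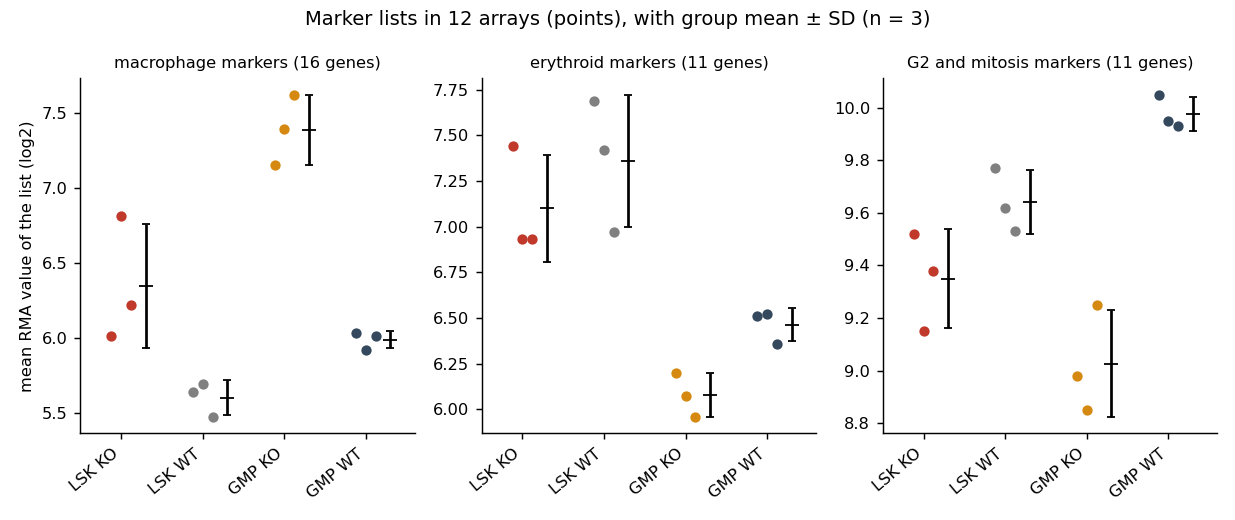
Mean RMA value (log2, vertical axis) of the macrophage, erythroid and G2 and mitosis marker lists in each array (points), by group, with the group mean ± SD (n = 3). Macrophage markers are highest in GMP KO arrays (7.15 to 7.62), and G2 and mitosis markers are lowest in the GMP KO and some LSK KO arrays.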

How the data were processed

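RNA of 12 sorted samples was amplified and hybridised to Affymetrix arrays, and the authors deposited log2 values made with RMA, per the submitters' processing notes. The sources used here give no detection calls, so values near background are not marked, and precision rests on 3 arrays per group. Of 34760 probe sets, 21640 carried 1 gene symbol in the platform annotation, 1321 carried several and the rest none here. Where a gene had several probe sets, the one with the highest mean was used, giving 19937 genes. All 4 groups were fitted together with limma 3.58.1 in R 4.3.3 (lmFit, eBayes, two-sided, Benjamini-Hochberg adjustment over all genes), after a test on simulated data. The 9 genes, the lists and the tests were chosen with earlier results of these data known. From related lists, up to 4 called genes per direction were named. Alternatives were another quantile normalization, median centring, a filter of the dimmest 30%, all probe sets averaged, a trended robust fit, array weights, a replicate block, fits of the groups compared alone and leaving out each array. List counts without GMP KO replicate 1 and LSK KO replicate 2 were added after seeing the data. Each group came from 3 mice, per the labels' protocols.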

Additional observations from a re-analysis of the deposited data

Results flagged for a closer look

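For Tfrc the KO effect in LSK minus that in GMP was 1.51 on the log2 scale by a test of the difference itself (limma adjusted p = 0.000434), with every KO array above WT in LSK and below WT in GMP. It ranged from 1.43 to 1.62 over the 12 fits that left out 1 array, and was called in all 12. For Hmox1 the same difference was -2.34 (limma adjusted p = 0.000855), with KO arrays above WT in GMP and overlapping WT in LSK. It ranged from -2.52 to -2.17 over the 12 fits and was called in all 12.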

How the results depend on the processing

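The calls of Tfrc, Hmox1 and Fth1 in the KO comparisons kept their direction and threshold under every alternative, and Steap3 in GMP lost its call in the fit of the GMP arrays alone (adjusted p = 0.0582). Ftl1 in GMP was called under quantile normalization (0.0462), the dim filter (0.0474) and array weights (0.0428), and Slc40a1 in GMP under array weights (0.0335). Of the 8 iron genes, those called between WT LSK and WT GMP numbered 1, against 2 under quantile normalization, 2 under median centring, 6 with array weights, 3 in the fit of those groups alone and 1 to 2 with 1 array left out. Between KO LSK and KO GMP they numbered 1, against 3 under quantile normalization, 3 with array weights and 1 to 3 with 1 array left out. The shares of all genes in these same fits are not set beside these counts of iron genes. The counts are therefore not a result about the iron genes. Signs turned only in differences that were not called: Slc11a2 in LSK was 0.01 under quantile normalization, 0.02 under median centring and -0.07 to 0.09 with 1 array left out; in GMP it was 0.00 under median centring, below 0 before rounding, and -0.02 to 0.20 with 1 array left out; its difference between cell types was 0.03 and -0.21 to 0.02 under the same alternatives. With 1 array left out, Hmox1 in LSK was -0.09 to 0.20 and the Slc40a1 difference between cell types -0.61 to 0.08. Between KO LSK and KO GMP, Tfrc was -0.02 under quantile normalization, and Steap3 was -0.06 under it, -0.03 with array weights and -0.05 to 0.16 with 1 array left out.

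Samples of the same number did not deviate together in every pair, so the numbers only name samples. The correlations of deviations were -0.179 to 0.177 for LSK with GMP, 0.036 to 0.129 for LSK KO with LSK WT (each best with its own number), and 0.068, 0.285 and -0.152 for GMP KO with GMP WT, where number 2 was best with its own number. With the replicate block the iron genes called were 1 in LSK and 4 in GMP, as without it, and 852 and 3073 of all genes, and it changed no call of the 8 genes.

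Counts over all genes, which set the shares printed beside the iron genes, moved more. In LSK 886 were called, against 1734 with array weights, 1390 in the fit of LSK arrays alone and 455 to 563 without any LSK array other than KO replicate 1. In GMP 3212 were called, against 1853 without WT replicate 2 and 1778 in the fit of GMP arrays alone. For the difference between cell types 1591 were called, against 800 to 1056 without LSK KO replicate 3, any LSK WT array but replicate 3, or GMP WT replicates 2 or 3. Between KO LSK and KO GMP 3160 were called, against 1667 without LSK KO replicate 3 and 1327 in the fit of those groups alone. Median centring changed the split of calls into higher and lower to 913 and 2781 in GMP, against 1153 and 2059. Quantile normalization moved the GMP split the other way, to 1199 and 1422. For the difference between cell types median centring gave 1577 and 376, against 1064 and 527 (586 and 499 under quantile normalization). Between WT cells median centring gave 1563 and 2989, against 2047 and 1858. Between KO cells quantile normalization gave 1496 and 1217, against 2006 and 1154.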
